A study of Mus musculus with 4 samples.

Results

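The genes of the MHC class II pathway were followed one by one through the cells of the mouse spleen after immunization. They are the 10 genes Ciita, Cd74, H2-Aa, H2-Ab1, H2-Eb1, H2-DMa, H2-DMb1, H2-DMb2, H2-Oa and H2-Ob, named by symbol among 31053 genes in the count matrices, and all 10 were found. B220+IgD- splenic cells were sorted at day 10 after injection of sheep red blood cells, which drive a T cell dependent germinal center (GC) reaction. Droplet-based single-cell RNA sequencing then counted the 3' ends of transcripts as unique molecular identifiers (UMIs). The animals were 8-week-old female mice on the C57BL/6J background, and all of them carried 1 Cγ1-cre allele, which produces Cre recombinase once activated B cells transcribe the Cγ1 locus. WT had no floxed allele, C was heterozygous for floxed Crebbp, K was heterozygous for floxed Kmt2d, and CK was heterozygous for both. Crebbp encodes a histone acetyltransferase and Kmt2d a histone methyltransferase that acts at enhancers. Each genotype was 1 mouse and 1 library, so no difference between genotypes given here has a replicate check and none was tested.

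MHC class II molecules carry peptides from ingested proteins to the surface of B cells, dendritic cells and macrophages, where CD4+ T cells read them. An alpha and a beta chain (H2-Aa with H2-Ab1, and H2-Eb1 with an alpha chain that C57BL/6 mice do not make) are held in the cell by the invariant chain Cd74 until it is cut away in endosomes. The dimer H2-DM then exchanges the last piece of Cd74 for antigenic peptide, and the dimer H2-DO (H2-Oa with H2-Ob) restrains H2-DM, mainly in B cells. Ciita is the coactivator that switches the whole group on. It does not touch DNA itself but binds RFX, CREB and NF-Y proteins seated on the X and Y boxes just upstream of the genes. In the GC, centroblasts (CB) divide in the dark zone, and centrocytes (CC) of the light zone present antigen to T follicular helper cells. Plasma cells are known to shut Ciita off.

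Of the 10 genes, 8 form 1 cluster. In GRCm38, with positions from GENCODE vM21, the 8 H2 genes lie on chromosome 17 between 34092340 and 34316674, a stretch of 224 kb. H2-Oa (ENSMUSG00000024334) spans 34092340 to 34095234, H2-DMa (ENSMUSG00000037649) 34119541 to 34139101, and H2-DMb2 (ENSMUSG00000037548) 34143307 to 34151555. H2-DMb1 (ENSMUSG00000079547) follows from 34153072 to 34160230, H2-Ob (ENSMUSG00000041538) from 34238903 to 34254414 and H2-Ab1 (ENSMUSG00000073421) from 34257689 to 34269419. H2-Aa (ENSMUSG00000036594) spans 34282744 to 34287823 on the minus strand, and H2-Eb1 (ENSMUSG00000060586) 34305867 to 34316674. Of these 8 genes, 7 are on the plus strand.

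The upstream windows that hold the Y box letters show what the cluster shares on the DNA. RefSeq promoters of GRCm38.p6 (250 bases before and 50 after a start) were at hand for 7 members, with 2 starts for H2-DMa. The letters TGATTGG of the Y box were searched on both strands, together with GNAAC, letters of the X box, lying 15 to 30 bases ahead of them on the same strand. Both motifs were chosen after the sequences had been seen. TGATTGG occurred in 6 of 8 promoters of members and in 7.82% of all 32851 promoters, and the pair in 5 of 8 and in 0.469%. In the windows printed here, each of 60 bases and upstream of the RefSeq start, TGATTGG and GNAAC are in capitals. For H2-Oa, H2-DMb1 and H2-DMb2 the RefSeq start lies downstream of the GENCODE one, so the window of H2-Oa crosses the GENCODE start and those of H2-DMb1 and H2-DMb2 lie inside the GENCODE span.
H2-Oa (chr17:34092289-34092348, plus strand): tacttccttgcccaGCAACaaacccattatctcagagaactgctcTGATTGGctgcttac
H2-DMb2 (chr17:34145112-34145171, plus strand): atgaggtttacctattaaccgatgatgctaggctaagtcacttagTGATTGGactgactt
H2-DMb1 (chr17:34153083-34153142, plus strand): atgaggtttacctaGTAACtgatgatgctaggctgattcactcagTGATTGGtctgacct
H2-Ob (chr17:34238801-34238860, plus strand): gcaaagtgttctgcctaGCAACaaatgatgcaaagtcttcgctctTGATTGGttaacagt
H2-Aa (chr17:34287859-34287918, minus strand): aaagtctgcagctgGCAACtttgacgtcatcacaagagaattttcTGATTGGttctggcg
H2-Eb1 (chr17:34305761-34305820, plus strand): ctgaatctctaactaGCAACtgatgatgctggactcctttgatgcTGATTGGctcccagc

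The Y box letters began 45 to 92 bases before the RefSeq start, and 23 to 26 bases separated the pair. H2-DMb2 had the Y box letters alone, and neither start of H2-DMa had them. A match is a description of letters and does not show binding.

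Cells were placed in 15 classes, which held 29975 of 39009 barcodes. The deposited annotation gave 6 classes of GC cells (9804 cells), among them CB (183 for WT, 421 for C, 645 for K and 1013 for CK), cells between CB and CC (471 for WT, 760 for C, 1029 for K and 1498 for CK) and CC (382 for WT, 515 for C, 611 for K and 936 for CK). The other 9 were rebuilt here from clusters of cells that the annotation leaves out, named by marker genes and without use of the 10 genes. Unannotated GC B-like cells (810 for WT, 622 for C, 788 for K and 662 for CK) are mostly cells with 2500 or more genes, a limit that the annotation stops at. Follicular B-like (1403 for WT, 2529 for C, 1198 for K and 1780 for CK) and T-like cells (1459 for WT, 1865 for C, 1633 for K and 3010 for CK) passed the sort too. Conventional dendritic-like cells, led by Xcr1 and Clec9a, numbered only 8 to 18 per library, and a B220+ gate would remove most of their kind. They were part of a mixed cluster and were named against the monocyte and neutrophil lists only. Beside 9 of 10 of their own markers, 11 of 12 T cell markers also counted there. Called doublets made up 22.2% of them in C, 11.1% in CK and 0% in WT and K. A B cell cluster led by Ccr6 and Bhlhe41 was kept apart.

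Library totals ran from 33270825 to 39803865 UMIs, and any pair of libraries shared 17 to 31 cell barcodes. All 5 general B cell markers and all 9 GC markers had UMIs in CB and CC of all 4 libraries, and the 12 T cell markers together stood at 26.5 to 42.5 CPM in CB and 42.5 to 65.0 CPM in CC. Levels are in CPM, the UMIs of a gene as a share of all UMIs of the class, scaled to the same total throughout, with 95% exact Poisson intervals. All intervals cover counting error only. In CC the median depth per cell was 4741 UMIs for WT, 3498 for C, 3811 for K and 2670 for CK, so CK was the shallowest. The K library differed from WT across all genes: the median log2 ratio of K over WT was -0.15 in CB, -0.14 in CC and -0.13 in follicular B-like cells. When all cells were clustered on genes other than the 10, CB of K fell in other clusters, with 41.6% in cluster 1, whereas cluster 0 held 16.4% of CB in WT, 39.2% in C and 49.95% in CK. Cluster 7 held 66.1%, 48.5%, 52.2% and 38.5% of CB in these 4 genotypes, listed as WT, C, K, then CK. Levels of Crebbp in annotated cells were 68.4 CPM for WT, 43.0 for C, 38.6 for K and 38.0 for CK and those of Kmt2d 18.5 CPM for WT, 21.3 for C, 9.85 for K and 15.1 for CK. These 3' counts can lie outside the deleted parts and do not check the genotypes.

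Across the classes, by the median of the 4 libraries, CC were second only to conventional dendritic-like cells for Cd74, H2-Aa, H2-Ab1, H2-Eb1, H2-DMa and Ciita. For H2-Aa, H2-Eb1 and Ciita the libraries of CC overlapped those of the Ccr6 and Bhlhe41-led B cells, the next class. For H2-DMa they overlapped those of conventional dendritic-like and of transitional cells. Cd74 (ENSMUSG00000024610, chromosome 18 from 60803848 to 60812652) in CC was at 37942 CPM for WT, 41134 for C, 37837 for K and 39011 for CK. In CB it was at 21183 CPM for WT, 20915 for C, 20821 for K and 18168 for CK, below every library of CC. Conventional dendritic-like cells had 44787 to 54998 CPM and follicular B-like cells 25763 to 31646 CPM.

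**Figure D1:**
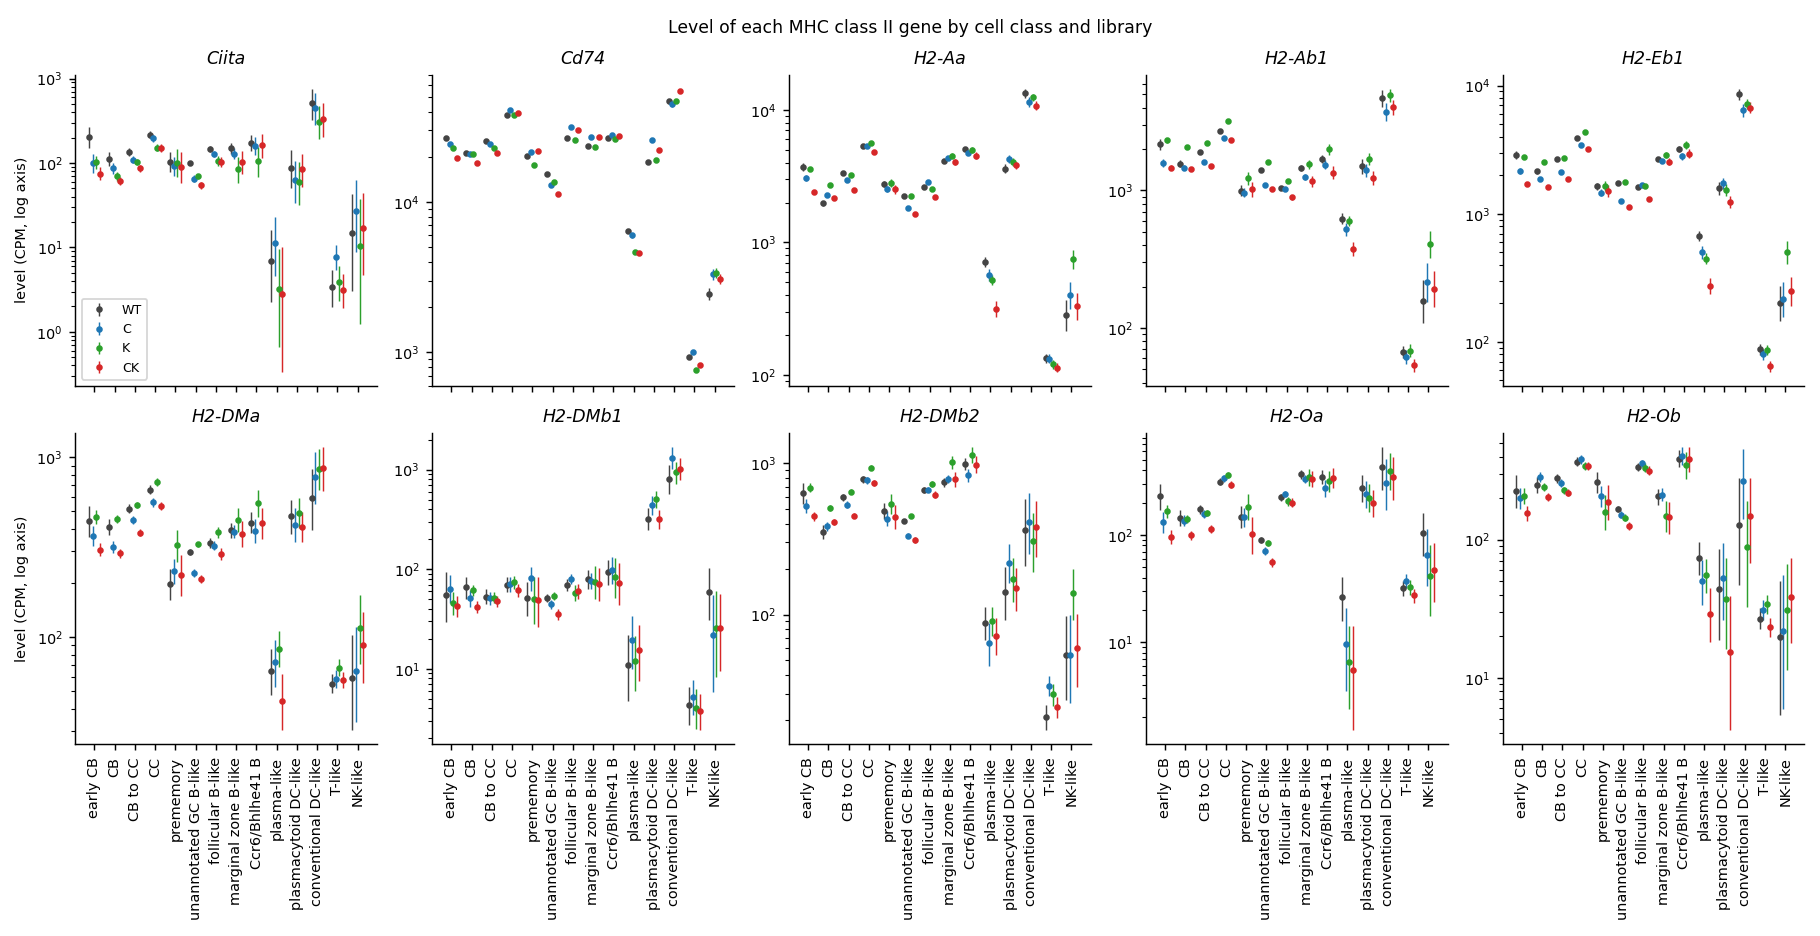
Level of each gene (CPM, logarithmic axis) in 14 cell classes, with 1 point per library (WT, C, K, CK) and 95% exact Poisson intervals for counting error. CC lie above CB for every gene in every library. Plasma-like, natural killer-like and T-like cells lie lowest for most genes, and H2-DMb1 is highest in the dendritic-like classes.

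The alpha and beta chains were likewise higher in CC than in CB. H2-Aa in CB was at 1969 CPM for WT, 2290.1 for C, 2708 for K and 2148 for CK, and in CC at 5361 CPM for WT, 5376 for C, 5659 for K and 4829.8 for CK. H2-Ab1 in CB was at 1571 CPM for WT, 1468 for C, 2084 for K and 1445 for CK, and in CC at 2703 CPM for WT, 2424 for C, 3202 for K and 2341 for CK. H2-Eb1 in CB was at 2136 CPM for WT, 1865 for C, 2537 for K and 1607 for CK, and in CC at 3863 CPM for WT, 3454 for C, 4331 for K and 3197 for CK. For all 3 chains CC were above CB in each library, and conventional dendritic-like cells were above both (10793 to 13393 CPM of H2-Aa, 3753 to 4945 CPM of H2-Ab1 and 6419 to 8567 CPM of H2-Eb1). Marginal zone B-like cells had 4054 to 4514 CPM of H2-Aa and follicular B-like cells 2205 to 2839.6 CPM, without overlap of the libraries. Neighbours in the order of classes from marginal zone B-like down to unannotated GC B-like cells overlapped for H2-Aa throughout.

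Ciita, the coactivator (ENSMUSG00000022504, chromosome 16 from 10480059 to 10528418, plus strand), was sparse in every class. In CB it stood at 111 CPM for WT, 86.1 for C, 69.6 for K and 61.6 for CK, and in CC at 216 CPM for WT, 196 for C, 152 for K and 151 for CK. WT was the highest library and CK the lowest in both. Follicular B-like cells had 147 CPM for WT, 129 for C, 105 for K and 102 for CK, again with WT highest and CK lowest. The intervals of K and CK overlapped in CB, CC and follicular B-like cells. K was below CK in marginal zone B-like cells (84.6 and 102 CPM) and in the Ccr6 and Bhlhe41-led B cells (105 and 162 CPM). Among CC, Ciita was detected in 63.6% for WT, 47.6% for C, 44.4% for K and 33.9% for CK, but with each cell thinned to 1000 UMIs the shares were 18.8% for WT, 17.3% for C, 13.3% for K and 15.7% for CK. The gap between WT and CK was thus wider without thinning, and the part that depth had in it was not tested.

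The peptide editors were measured as 3 genes. H2-DMa, the alpha chain, in CB was at 412 CPM for WT, 317 for C, 456 for K and 292 for CK, and in CC at 661 CPM for WT, 563 for C, 729.9 for K and 536 for CK. H2-DMb2, one of the beta chain genes, in CB was at 354 CPM for WT, 383 for C, 506 for K and 410.0 for CK, and in CC at 785 CPM for WT, 773 for C, 939.7 for K and 747 for CK. Its highest levels were 836 to 1137 CPM in the Ccr6 and Bhlhe41-led B cells and 748 to 1015 CPM in marginal zone B-like cells, which overlapped each other and CC. H2-DMb1, the other beta chain gene, in CB was at 65.5 CPM for WT, 51.0 for C, 61.1 for K and 41.6 for CK, and in CC at 70.0 CPM for WT, 71.1 for C, 73.9 for K and 61.7 for CK, and the intervals of the classes overlapped in every library but CK.

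H2-Oa and H2-Ob, the chains of the H2-DM inhibitor, differed in where else they were found. H2-Oa in CB was at 144 CPM for WT, 136 for C, 141 for K and 98.9 for CK, and in CC at 314 CPM for WT, 336 for C, 363 for K and 294.2 for CK. H2-Ob in CB was at 249 CPM for WT, 284 for C, 240.2 for K and 204 for CK, and in CC at 368 CPM for WT, 383 for C, 342 for K and 343 for CK. Both were thus higher in CC of every library. In plasmacytoid dendritic-like cells H2-Oa reached 198 to 273 CPM, whereas H2-Ob was at 15.3 to 52.8 CPM from 4 to 11 UMIs. Called doublets made up 6.25 to 13.3% of this class, and without them H2-Oa was at 230.0 to 282 CPM and H2-Ob at 25.6 CPM for WT, 32.6 for C, 32.1 for K and 10.5 for CK. Of the UMIs of both genes there, doublets included, H2-Oa made up 86.2% for WT, 82.0% for C, 85.7% for K and 92.9% for CK, against 38.2 to 40.1% in follicular B-like cells and 61.2 to 69.8% in marginal zone B-like cells. These libraries did not overlap between any 2 of the 3 classes.

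The step from CB to CC was compared within each library. A gene was called higher where its ratio of CPM was at or above the inverse of 0.8 in all 4 libraries, among genes with at least 20 UMIs over both classes. This held for 9 of the 10 genes, beside 10.8% of all 7674 genes tested. The exception was H2-DMb1, with log2 ratios of 0.096 for WT, 0.48 for C, 0.27 for K and 0.57 for CK. The median over the 10 genes was 0.85 for WT, 0.93 for C, 0.82 for K and 0.93 for CK on the log2 scale, and that over all genes -0.14 for WT, -0.072 for C, -0.10 for K and -0.026 for CK. H2-Oa had log2 ratios of 1.12 for WT, 1.31 for C, 1.37 for K and 1.57 for CK, the largest of the 10 in C, K and CK. H2-Aa, the largest in WT, had 1.44 for WT, 1.23 for C, 1.06 for K and 1.17 for CK. H2-Ob had 0.56 for WT, 0.43 for C, 0.51 for K and 0.75 for CK, so the 2 chains of H2-DO had unequal ratios. Between CB and the transitional cells none of the 10 reached that ratio in all 4 libraries, beside 5.32% of all genes tested. Between transitional cells and CC all 10 did, beside 6.31%.

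Cells called prememory, which leave the GC, had lower levels than CC. The ratio of prememory cells to CC was 0.8 or below in all 4 libraries for 9 of 10 genes, beside 11.7% of all genes tested. In prememory cells H2-Ab1 was at 999.6 CPM for WT, 964 for C, 1227 for K and 1017 for CK, with log2 ratios to CC of -1.44 for WT, -1.33 for C, -1.38 for K and -1.20 for CK. H2-DMa had log2 ratios of -1.75 for WT, -1.27 for C, -1.17 for K and -1.28 for CK, and H2-DMb1 again was the exception. Follicular B-like cells stood below CC in the same sense for 7 of 10 genes, beside 12.3% of all genes. The 3 genes that did not reach 0.8 in all libraries were H2-DMb1, H2-DMb2 and H2-Ob, the last with log2 ratios of -0.13 for WT, -0.10 for C, -0.043 for K and -0.12 for CK.

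The deposited pseudotime rank orders GC cells from CB towards CC and exit. Cells of each library were divided into 10 bins of equal number along it, which compares order within a library only. Cd74 was lowest in bin 2 in WT and C (22260.2 and 18739 CPM) and in bin 3 in K and CK (19588 and 17025 CPM). It peaked in bin 8 in WT at 36139.8 CPM, in bin 9 in C at 37583 CPM and in K at 36673 CPM, and in bin 10 in CK at 39718 CPM. The last bin was mostly prememory cells in WT (72.1%) and C (67.6%) but mostly CC in K (64.7%) and CK (75.7%). H2-DMa went from 625 to 323 CPM between the last 2 bins in WT and from 531 to 535 CPM in CK. H2-Ob was not lower in the last bin than in the one before in any library and ended at 416 CPM for WT, 405 for C, 405 for K and 434 for CK. In bin 5, which was mostly transitional cells in all 4 libraries, CK had 116 CPM of H2-Oa and WT 201 CPM. Bins were set within each library and need not mark the same stage, so these values do not compare the genotypes.

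**Figure D2:**
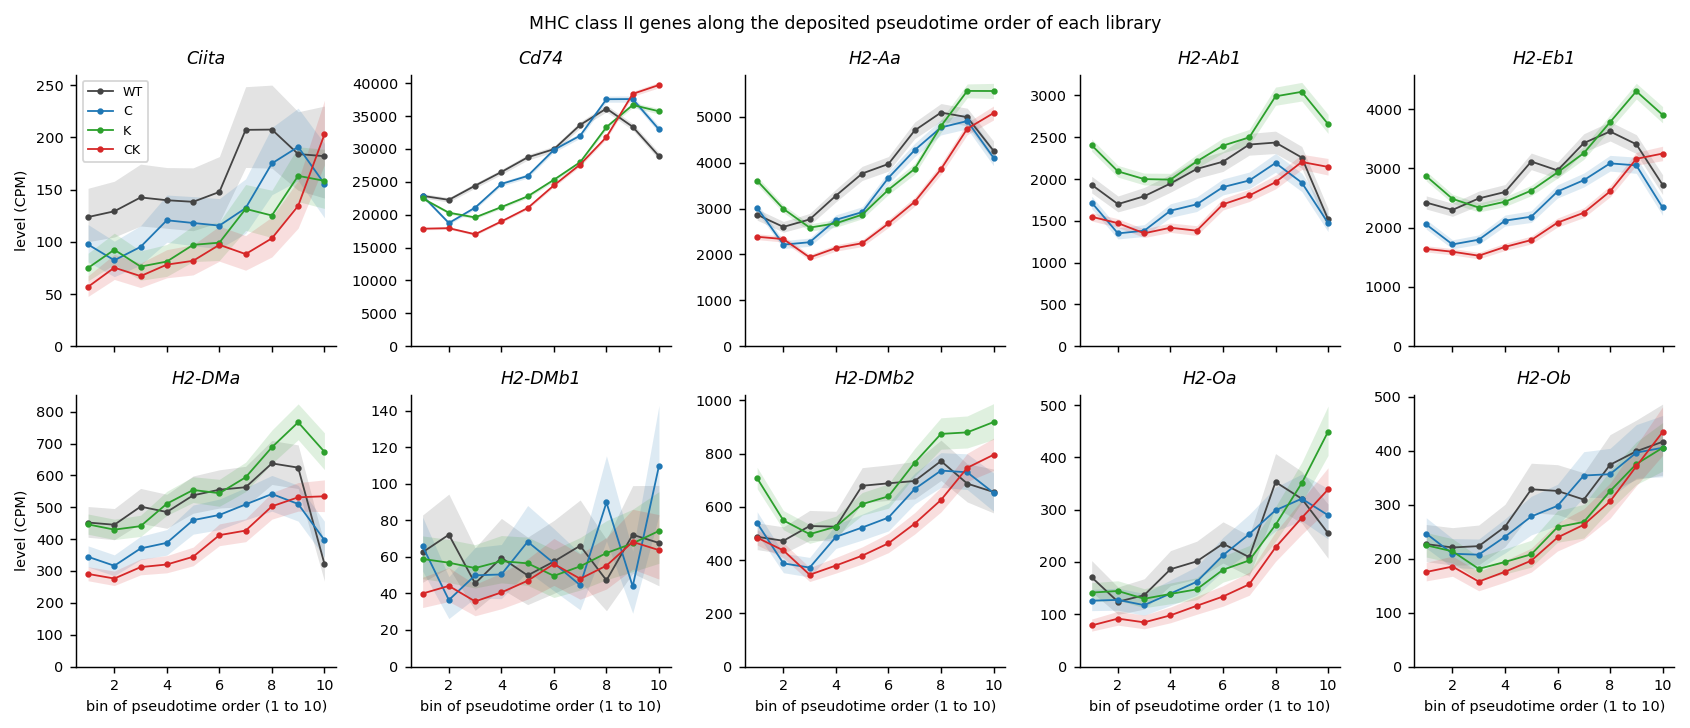
Level of each gene (CPM) in 10 bins of equal cell number along the deposited pseudotime order, with 1 line per library and shaded 95% exact Poisson intervals. For every gene but H2-DMb1 the levels are higher in bins 8 and 9 than in bin 2 in all 4 libraries, and WT and C turn down in the last bin for most genes while CK does so for H2-Ab1 and H2-DMb1 only.

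Whether the genotypes differed was addressed with the ratio of CPM over WT in the same class. A gene was called lower at a ratio of 0.8 or below, with at least 20 UMIs over both libraries. In CK, 5 of 10 genes were lower in CB, beside 26.1% of all genes tested. They were H2-DMb1 with a log2 ratio of -0.65 (-1.07 to -0.22), Ciita with -0.85 (-1.18 to -0.52), H2-Oa with -0.55 (-0.82 to -0.26), H2-DMa with -0.49 (-0.66 to -0.33) and H2-Eb1 with -0.41 (-0.48 to -0.34). H2-Aa and H2-DMb2 stood on the other side of WT at 0.13 (0.054 to 0.20) and 0.21 (0.043 to 0.38). The median of the 10 was -0.35 and that of all genes -0.043. WT had only 183 CB with an annotation. With cells of 2500 or more genes added by the label of their nearest annotated cells, H2-Aa and H2-DMb2 turned to -0.25 and -0.21. With each cell thinned to 1000 UMIs, H2-Oa went from -0.55 to -0.14 and H2-DMa from -0.49 to -0.14.

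In the other GC classes of CK that precede CC, more of the genes were lower. All 10 were lower in early CB, beside 24.6% of all genes, with a median of -0.55 and only 38 such cells in WT. In transitional cells 8 of 10 were lower, beside 18.5%, and their median was -0.41. Ciita had a log2 ratio of -0.65 (-0.86 to -0.45) there, H2-Oa -0.61 (-0.79 to -0.43) and H2-Eb1 -0.53 (-0.57 to -0.48). In unannotated GC B-like cells all 10 were lower, beside 18.3%, with a median of -0.48. These cells carry many UMIs, 9566 to 11470.5 at the median, which narrows the intervals. H2-Eb1 was at 1737 CPM for WT, 1248 for C, 1772 for K and 1136 for CK, a log2 ratio of -0.61 (-0.65 to -0.57) in CK. Cd74 was at 15366 CPM for WT, 13004 for C, 13656 for K and 11362 for CK, a log2 ratio of -0.44 (-0.45 to -0.42). The mix of this class differed, since transitional cells were the nearest label of 27.2% in WT and 10.7% in CK. Among those nearest to CB (456 cells in WT and 461 in CK), 10 of 10 were lower in CK, beside 19.3% of all genes, with -0.64 for H2-Eb1 and -0.44 for H2-Aa. Among those nearest to transitional cells (220 cells in WT and 71 in CK), 8 of 10 were, beside 24.9%. There H2-DMb1 stood at 0.24 (-0.35 to 0.80), H2-Ob at -0.32 (-0.65 to 0.0051) and H2-Oa at -0.42 (-0.92 to 0.050), intervals that include 0.

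CC of CK were closer to WT. Only Ciita was lower, beside 15.8% of all genes, at -0.52 (-0.72 to -0.32), and 9 of 10 ratios were below 0. The median was -0.17 and that of all genes 0.039, and 27.8% of all genes lay at or below the median of the 10. H2-DMa was at -0.30 (-0.41 to -0.19), H2-Eb1 at -0.27 (-0.32 to -0.23) and Cd74 at 0.040 (0.026 to 0.054). Follicular B-like cells, which need not have expressed the Cre, had ratios of this size for the same gene: 2 of 10 were lower, beside 16.7%, namely Ciita at -0.52 (-0.75 to -0.29) and H2-Eb1 at -0.33 (-0.39 to -0.26). Relative to them, Ciita in CC of CK was at -0.0024 (-0.31 to 0.31) and H2-Eb1 at 0.055 (-0.025 to 0.14), and none of the 10 reached 0.8, beside 16.8% of all genes on this relative scale. In CB, 4 of 10 reached 0.8 relative to follicular B-like cells, beside 26.1% of all genes: Cd74 at -0.40 (-0.43 to -0.37), H2-DMb1 at -0.44 (-0.97 to 0.098), H2-Oa at -0.37 (-0.70 to -0.037) and Ciita at -0.34 (-0.73 to 0.073). Cd74 stood above WT in follicular B-like cells of CK, at 0.18 (0.16 to 0.19).

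**Figure D3:**
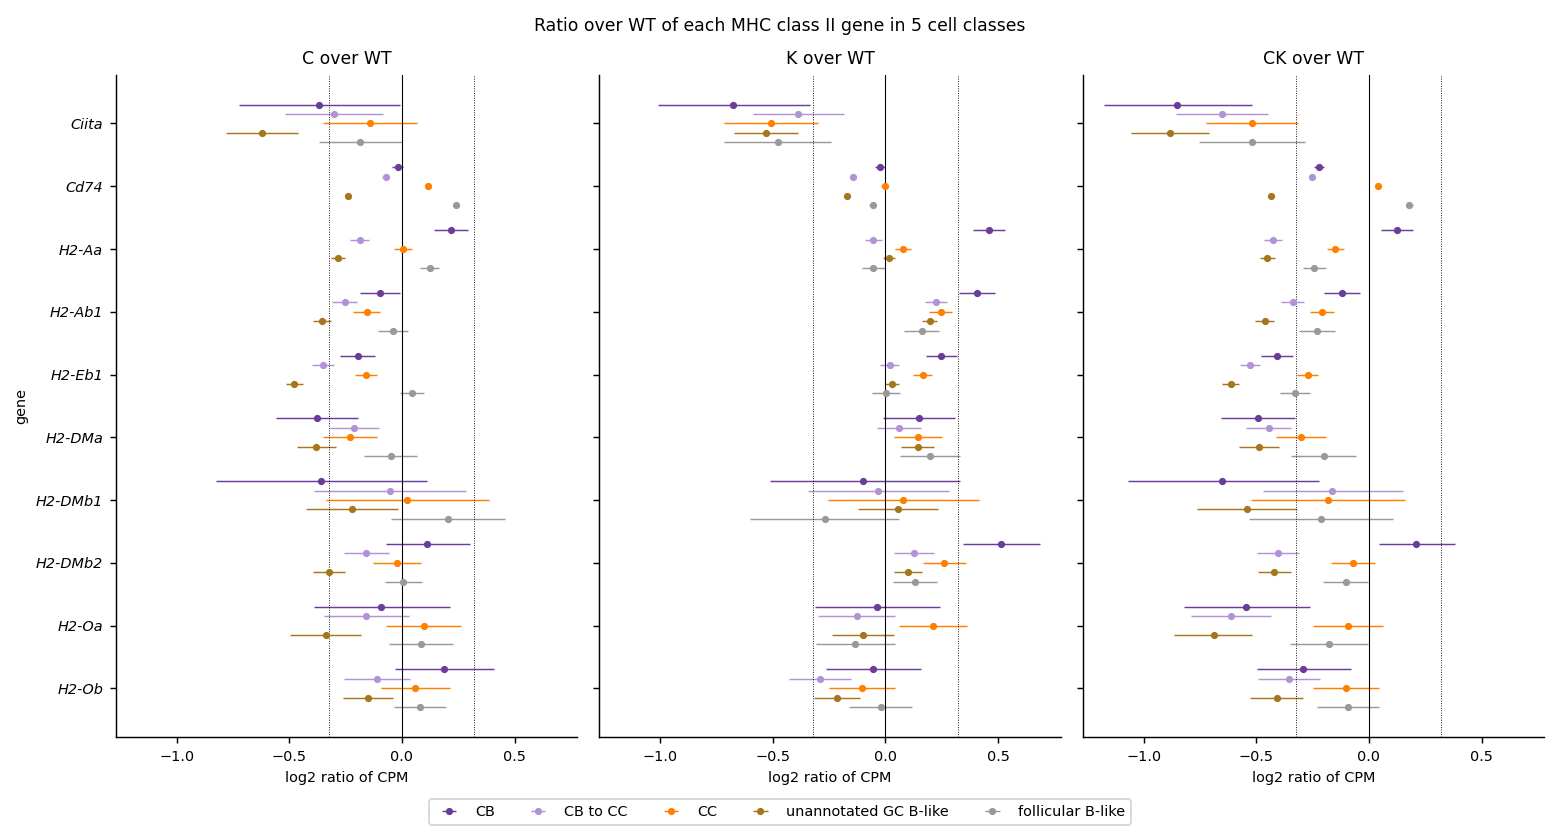
log2 ratio of CPM over WT for each gene in C, K and CK (panels), in CB, transitional cells, CC, unannotated GC B-like and follicular B-like cells, with 95% exact conditional intervals for counting error. Dotted lines mark a ratio of 0.8 and its inverse. In CK all 10 points of unannotated GC B-like cells lie left of the first dotted line, while in CC only Ciita does.

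In C, 3 of 10 genes were lower in CB, beside 20.6% of all genes. H2-DMa had a log2 ratio of -0.38 (-0.56 to -0.20), Ciita -0.37 (-0.72 to -0.0097) and H2-DMb1 -0.36 (-0.82 to 0.11). In transitional cells 1 gene was lower, beside 15.4%, namely H2-Eb1 at -0.35 (-0.40 to -0.30). All 10 ratios there were below 0. Their median was -0.17 and that of all genes 0.0041, and 28.3% of all genes lay at or below the median of the 10. None was lower in CC, beside 15.6%. Unannotated GC B-like cells had 6 of 10 lower, beside 13.9%, with Ciita at -0.62 (-0.78 to -0.46) and H2-Eb1 at -0.48 (-0.51 to -0.44). The medians of the 10 were -0.095 in CB, -0.0088 in CC, -0.33 in unannotated GC B-like and 0.063 in follicular B-like cells.

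In K, Ciita was the 1 gene called lower in CB, beside 37.6% of all genes, at -0.68 (-1.01 to -0.33). It was also the 1 gene called in transitional cells (beside 37.3%) at -0.39 (-0.59 to -0.18), in CC (beside 37.2%) at -0.51 (-0.71 to -0.30) and in unannotated GC B-like cells (beside 37.6%) at -0.53 (-0.67 to -0.39). In follicular B-like cells of K it was at -0.48 (-0.71 to -0.24), and relative to them CB had -0.20 (-0.61 to 0.22) and CC -0.032 (-0.35 to 0.28). In CB of K, 3 of 10 genes were above the inverse of 0.8, beside 15.3% of all genes: H2-DMb2 at 0.51 (0.35 to 0.69), H2-Aa at 0.46 (0.39 to 0.53) and H2-Ab1 at 0.41 (0.33 to 0.49). These calls did not hold with cells above the gene limit of the annotation added. H2-DMb2 then stood at 0.20, H2-Aa at 0.13 and H2-Ab1 at 0.30, each short of that inverse. H2-Ab1 was above WT in CC as well, at 0.24 (0.19 to 0.30). The median over the 10 was 0.062 in CB and 0.11 in CC, above the medians over all genes given for this library. Set side by side in unannotated GC B-like cells, H2-Eb1 was at -0.48 in C, 0.029 in K and -0.61 in CK, ratios that share the WT library.

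Single cells were compared within classes. Each cell was thinned to 1000 UMIs, and the UMIs of Cd74, H2-Aa, H2-Ab1 and H2-Eb1 were added up for each cell. The median CB had 27 UMIs for WT, 25 for C, 27 for K and 23 for CK, and the 10th percentile was 16.2 for WT, 15 for C, 15 for K and 12 for CK. The share of CB at or below the 10th percentile of WT was 10.4% for WT, 15.1% for C, 11.8% for K and 24.5% for CK, with an exact binomial interval of 21.8 to 27.2% in CK. In unannotated GC B-like cells it was 10.2% for WT, 18.6% for C, 15.1% for K and 30.2% for CK. In CC the medians were 51 for WT, 54 for C, 53 for K and 51 for CK and the shares 10.1% for WT, 10.7% for C, 11.02% for K and 16.4% for CK. The 90th percentile of CC was 66 for WT, 76 for C, 74 for K and 71 for CK, so the highest cells of WT lay below those of the other libraries. Prememory cells had 7 to 11 at the 10th and 42.8 to 49.6 at the 90th percentile over the libraries.

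T-like cells, which in mice do not make surface class II, were read as the background class. B cell transcripts were present in them at a low level. Without called doublets, Cd79a stood at 2.67 to 3.64% and Ms4a1 at 2.22 to 3.01% of their level in the B classes of the same library. Cd74 stood at 2.71 to 3.34%, H2-Aa at 3.05 to 4.12%, H2-Ab1 at 2.66 to 3.74% and H2-Eb1 at 2.68 to 3.42%, ranges that overlapped that of Cd79a. H2-Oa was far above them, at 18.2% for WT, 20.3% for C, 18.9% for K and 22.0% for CK. H2-DMa was at 13.99% for WT, 16.1% for C, 14.99% for K and 17.6% for CK and H2-Ob at 9.93% for WT, 11.4% for C, 14.9% for K and 10.6% for CK. H2-DMb1 was at 6.24 to 7.76% and H2-DMb2 at 3.40 to 5.04%. H2-Oa, H2-DMa and H2-Ob were thus above Cd79a and Ms4a1 in T-like cells of each library, and the source of these UMIs was not tested.

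**Figure D4:**
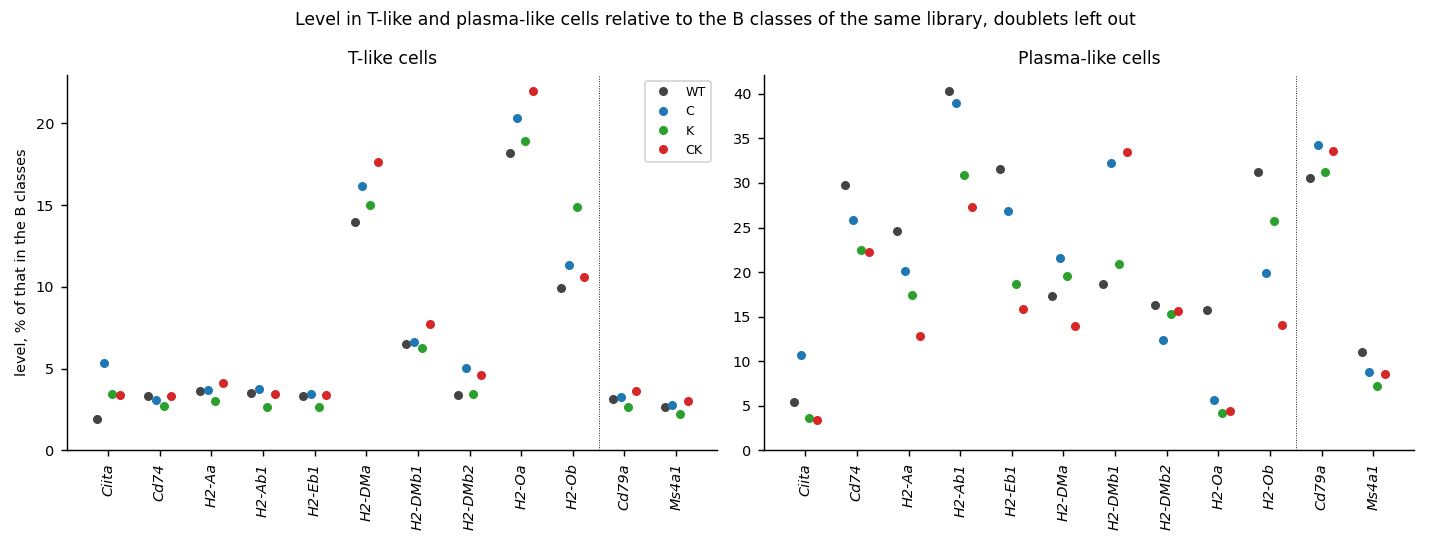
Level of each gene in T-like cells (left) and plasma-like cells (right), as a percent of its level in the B classes of the same library, with 1 point per library and called doublets left out. The 2 B cell genes to the right of the dotted line are shown for comparison. In T-like cells H2-DMa, H2-Oa and H2-Ob lie between 9.93 and 22.0%, and these B cell genes at or below 3.64%.

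Shares of T-like cells with a UMI were large for the abundant transcripts. Among T-like cells Cd74 had a UMI in 84.4% for WT, 74.2% for C, 73.4% for K and 69.5% for CK, and after thinning in 43.8% for WT, 46.8% for C, 39.9% for K and 45.4% for CK. The median depths were 3271 UMIs for WT, 2403 for C, 2772 for K and 1960 for CK. H2-Aa had a UMI in 28.2% for WT, 20.7% for C, 22.2% for K and 18.4% for CK, or 9.09% for WT, 9.65% for C, 9.53% for K and 9.84% for CK after thinning. Ciita had a UMI in 1.03% for WT, 1.82% for C, 1.10% for K and 0.598% for CK, and H2-Oa in 9.80% for WT, 8.53% for C, 8.27% for K and 5.32% for CK, or 2.22% for WT, 2.97% for C, 3.16% for K and 2.91% for CK after thinning. A single UMI of Cd74 therefore marks no B cell here, whereas the summed level set the classes apart: 765 to 1008 CPM in T-like against 25763 to 31646 CPM in follicular B-like cells. In natural killer-like cells, of which there were 57 to 96 per library with 5.17 to 11.3% called doublets, H2-Oa was at 104 CPM for WT, 65.1 for C, 41.1 for K and 47.3 for CK.

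H2-DMb1 and H2-DMb2 are near copies of each other, so reads could be split between them, and the split differed sharply between lineages. Of the UMIs of both genes, H2-DMb1 among CB made up 15.6% for WT, 11.7% for C, 10.8% for K and 9.21% for CK, and among CC 8.19% for WT, 8.43% for C, 7.29% for K and 7.63% for CK. In follicular B-like cells the share was 9.43% for WT, 10.7% for C, 7.32% for K and 8.80% for CK. In plasmacytoid dendritic-like cells it was 69.4% for WT, 66.4% for C, 74.5% for K and 68.3% for CK, from 59 to 108 UMIs of H2-DMb1, and without called doublets 87.9% for WT, 72.6% for C, 77.1% for K and 66.0% for CK. In conventional dendritic-like cells it was 69.1% for WT, 76.2% for C, 75.3% for K and 72.9% for CK, with exact binomial intervals between 55.2 and 84.8%. No library of a dendritic-like class overlapped any library of a B cell class. The level of H2-DMb1 was 321 to 501 CPM in plasmacytoid and 808 to 1312 CPM in conventional dendritic-like cells, against 57.7 to 79.9 CPM in follicular B-like cells. H2-DMb2 went the other way, with 142 to 221 CPM in plasmacytoid dendritic-like and 621 to 729.8 CPM in follicular B-like cells. Without called doublets, H2-DMb2 in the plasmacytoid class of WT went from 142 to 44.9 CPM, and in the other libraries it was then 160.5 to 174 CPM.

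**Figure D5:**
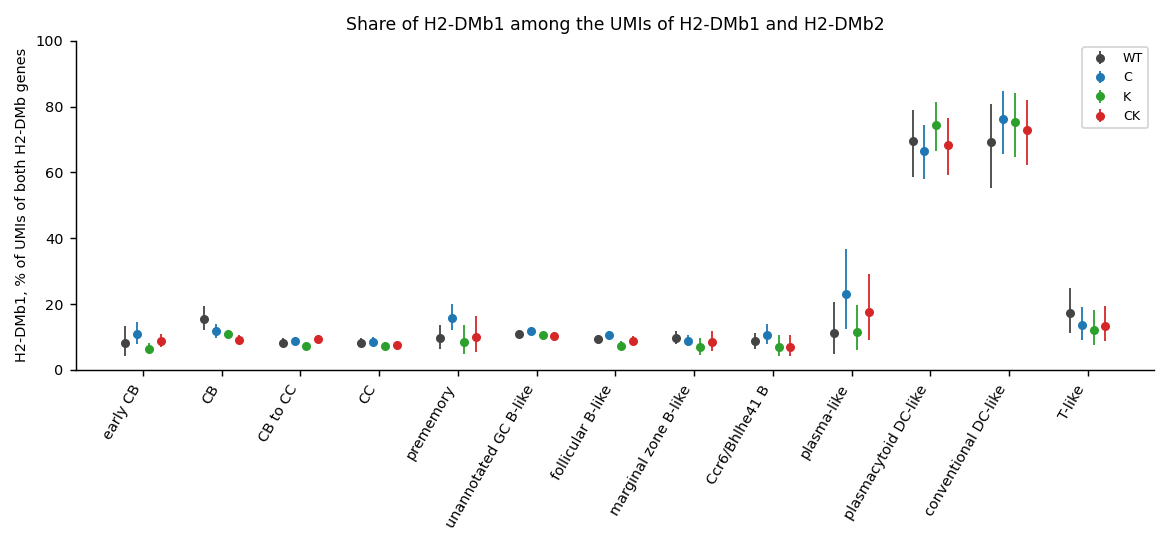
H2-DMb1 as a percent of the UMIs of H2-DMb1 and H2-DMb2 together in 13 cell classes, with 1 point per library and 95% exact binomial intervals. Both dendritic-like classes lie between 66.4 and 76.2%, and CB, CC and follicular B-like cells between 7.29 and 15.6%.

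Plasma-like cells had low levels of these transcripts, but unequally so. All 10 genes were at 0.8 or below relative to CC in all 4 libraries, beside 68.1% of all genes, so most genes were lower in these cells. Ciita had 2 to 7 UMIs per library and was at 6.88 CPM for WT, 11.3 for C, 3.25 for K and 2.78 for CK. H2-Oa was at 26.1 CPM for WT, 9.65 for C, 6.49 for K and 5.56 for CK, with WT above the other libraries. Cd74 was still at 6398 CPM for WT, 5995 for C, 4649 for K and 4599.9 for CK and H2-Ab1 at 623 CPM for WT, 521 for C, 605 for K and 378 for CK. As a percent of the level in B classes, Ciita stood at 5.38% for WT, 10.7% for C, 3.61% for K and 3.42% for CK and H2-Ab1 at 40.3% for WT, 38.9% for C, 30.9% for K and 27.3% for CK. The 8 to 9 genes that could be compared had a median log2 ratio over WT of -0.32 for C, -0.44 for K and -0.95 for CK, from 48 to 70 cells per library. Over all genes that could be compared the median was 0.061, -0.25 and 0.014, in the same order.

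The other genes of the pathway were taken from lists of regulators, proteases and partners. Of 14 regulators, 3 of 13 tested were lower and 1 higher in CB of CK, and 3 and 1 in CC. Of all genes, 21.8% were higher in CB and 19.1% in CC, beside the shares of lower genes given above. Rfx5, a subunit of the X box factor, passed in both, but in opposite directions: CB had 0.50 (-0.35 to 1.46) and CC had -0.53 (-0.99 to -0.078). The others, named here after their values were seen, were Spi1, Bcl6 and Creb1 in CB and Nfya, Irf4 and, on the higher side, Nfyc in CC. The processing list holds proteases of the endosome with Ifi30, Cst3 and Sppl2a. Of it, 6 of 8 genes tested were lower and 1 higher in CB, beside the 26.1% of all genes lower there, and 4 of 7 were lower and 0 higher in CC, beside 15.8% lower. The same 4 genes passed in both: Lgmn, an endosomal protease, at -0.60 (-0.87 to -0.33) and -0.43 (-0.66 to -0.21), Ctsh, a cathepsin, at -0.52 (-0.72 to -0.31) and -0.36 (-0.50 to -0.22), Cst3, a cathepsin inhibitor, at -0.56 (-0.73 to -0.38) and -0.44 (-0.64 to -0.24), and Ctsd, another cathepsin, at -0.91 (-1.62 to -0.15) and -0.50 (-1.14 to 0.14). Ctss, the cathepsin that removes most of Cd74 in B cells, passed in CB and not in CC, at -0.39 (-0.60 to -0.17), and Sppl2a, a protease of the membrane, was the higher one in CB at 0.32 (-0.15 to 0.83). Both are named after their values were seen. Mif, a ligand of surface Cd74, was higher in both, at 0.51 (0.26 to 0.76) and 0.32 (0.15 to 0.50). Of the turnover genes, 2 could be compared and neither was lower, while Cd83, also named after its value was seen, was higher in CB at 0.39 (-0.013 to 0.81). In follicular B-like cells of CK, Ctsh was at -0.50 (-0.67 to -0.34), and 1 of 8 processing genes was lower, beside 16.7% of all genes.

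H2-Eb2 (ENSMUSG00000067341, chromosome 17 from 34325665 to 34341412), a further beta chain gene next to H2-Eb1, differed from H2-Eb1 in where it was found. In CB it was at 64.4 CPM for WT, 58.2 for C, 48.6 for K and 46.9 for CK, and in CC at 106 CPM for WT, 100.3 for C, 71.1 for K and 75.7 for CK. Follicular B-like cells had 10.96 to 17.4 CPM, below every library of CB and CC, whereas the Ccr6 and Bhlhe41-led B cells had 44.5 to 81.6 CPM. No UMI was counted in conventional dendritic-like cells, where 3 UMIs would allow up to 63.8 CPM in the smallest library. The log2 ratio of CK over WT for CB was -0.46 (-0.87 to -0.027) and for CC -0.48 (-0.77 to -0.19), and that of K over WT for CC was -0.57 (-0.87 to -0.27). The alpha chain pseudogene H2-Ea-ps was not analysed here.

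The 10 genes shared most of their pattern over 48 profiles of class and library with at least 50 cells. Pearson's r of log2(CPM + 1) was highest for H2-Aa with H2-Eb1 (0.98) and lowest for H2-DMb1 with H2-Ob (0.50). Profiles of 1 library share their depth and preparation, so r is a description. Among 5347 genes with a mean of at least 20 CPM, Cd180, a receptor of B cells, was among the 3 most similar genes of 5 of the 10, with r of 0.96 for H2-Aa and 0.96 for Ciita. Ctsh was among those of H2-Aa, H2-Ab1 and H2-Eb1, at 0.95, 0.94 and 0.93. H2-DMb2 was most like Ms4a1 (0.96), a surface protein of B cells. H2-DMb1 was most like Tcf4 (0.93), a transcription factor of plasmacytoid dendritic cells. H2-Oa was most like Cd37 (0.93), and Cd74 most like Unc93b1 (0.95).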

How the data were processed

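The authors deposited raw UMI counts per gene and barcode for each library, made with Cell Ranger (3.0.2 in the matrix header, 3.0 in the submitters' processing notes) on mm10. They also deposited a table of GC cells with subtype labels, the percent of mitochondrial UMIs and a pseudotime rank, a score on a trajectory made for each mutant together with WT in R after processing with Seurat 4.0. The strand setting and multi-mapping treatment of the counting are not given in the sources used here.

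Labels were joined to the matrices by barcode. Cells with under 8% mitochondrial UMIs were clustered with scanpy 1.11.5 (3000 variable genes without the 10 genes, 40 components, 15 neighbours, resolution 1.5), and cells outside the annotation were named by cluster from marker lists. Scrublet calls were kept except where stated. UMIs were summed per class and library. Poisson, Clopper-Pearson and conditional binomial intervals came from scipy 1.17.1. The sign and interval of a ratio were checked on simulated counts with counting error only and larger known folds. The calls at 0.8 and its inverse were not checked in this way. Libraries were compared by ratio without a test, each group being 1 library. Named genes are the 10 members, the pathway genes past a ratio of 0.8 or its inverse in CB and in CC of CK, H2-Eb2, and the most similar genes. The members and lists were chosen with earlier results of these data known. Alternatives were scaling, doublets, thinning, totals, the gene limit, the UMI minimum and a reference to follicular B-like cells.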

Additional observations from a re-analysis of the deposited data

Results flagged for a closer look

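For 2 genes the ratio of CK over WT pointed one way in CB and the other way in CC. H2-Aa stood at 0.13 in CB and -0.15 in CC on the log2 scale, a difference of -0.28. Cd74 stood at -0.22 in CB and 0.040 in CC, a difference of 0.26. Each genotype is 1 library, so neither difference was tested, and none of these 4 ratios passed 0.8 or its inverse. For H2-Aa the sign in CB turned to -0.25 with cells of 2500 or more genes added. Taken relative to follicular B-like cells, neither gene changed sign between the classes. Cd74 was then at -0.40 in CB and -0.14 in CC, and H2-Aa at 0.37 in CB and 0.092 in CC. The remaining alternatives kept the opposite signs of both genes, but median-ratio scaling left Cd74 at only 0.0012 in CC.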

How the results depend on the processing

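The counts of genes called lower than WT rest on 1 library per genotype, on ratios near 0.8 and, in CB, on 183 annotated cells of WT. Of the 10 genes, the number lower in CK was 2 in CC with median-ratio scaling and 0 relative to follicular B-like cells, against 1. In follicular B-like cells of CK it was 1 with median-ratio scaling, with Scrublet calls left out and with thinned cells, against 2. In K the number in CB was 2 with thinned cells and 0 relative to follicular B-like cells, that in CC was 0 relative to follicular B-like cells, each against 1, and that in unannotated GC B-like cells was 2 among those nearest to transitional cells, a subset chosen after seeing the data. The other alternatives left these counts, those of C in CB and CC, that of CK in CB and that of CC over CB within 1.5 times. A count within that limit need not hold the same genes, as in CB of C. Counts in early CB and transitional cells were not recomputed, nor were those of prememory, plasma-like and follicular B-like cells against CC, and unannotated cells were recomputed only by nearest label. Of the called ratios, that of H2-DMb1 in unannotated GC B-like cells of CK changed sign. It went from -0.54 to 0.24 (-0.35 to 0.80) among those nearest to transitional cells. Thinning changed 142 of 160 shares of cells by more than their interval. The causes were not tested. No paired analysis was possible because each group has 1 library. Any reads shared by H2-DMb1 and H2-DMb2 would limit the values of both, and such sharing was not measured.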
